A study of Drosophila melanogaster with 10 samples.

Results

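The vacuolar ATPase (V-ATPase) genes of DL1 cells were described on 10 Affymetrix Drosophila_2 arrays. DL1 is a cultured Drosophila melanogaster line, and its cells were bathed in double-stranded RNA (dsRNA) and collected 5 days later. The 5 control RNAi arrays come from cells given dsRNA to renilla, a luciferase sequence that the fly genome lacks, and the 5 nbr RNAi arrays from cells given dsRNA to nbr (CG9247). Both groups therefore received dsRNA, and a response to dsRNA as such cannot be read from them. The design text calls the 5 replicates of each group independent, and each was total RNA of a whole culture, so fewer expressing cells and less RNA per cell cannot be told apart. The members are the genes whose symbol in the deposited table is single and starts with Vha, each represented by its probe set with the highest mean over the 10 arrays. The rule gave 19 genes, from 20 probe sets, of 12401 genes with a single symbol. All levels are log2 GCRMA values per probe set. A further 16 genes of the same complex carry a CG number in the deposited table and were named through their RefSeq transcripts, which makes 35 genes in all. They are shown for comparison and are not members.

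The V-ATPase is a rotary proton pump of endosomes, lysosomes and other acidic organelles, and of the plasma membrane of some epithelia. Its cytosolic V1 sector, built from subunits A to H, hydrolyses ATP and turns a central stalk, and its membrane V0 sector, built from subunits a, c, c″, d and e, carries protons through a ring of c and c″ subunits. Insects have several genes for some of these subunits, and many of the extra fly copies are known mainly from testis or from single tissues. Fly cells in culture take up dsRNA by endocytosis, and V-ATPase genes were found in screens for genes needed for that uptake, since later steps depend on acidic endosomes.

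DL1 cells had a clear signal for at least 1 gene of every V1 and V0 subunit. Of the 19 members, 16 had a mean log2 level of at least 4 over the 10 arrays, the filter used here for a measured signal, and 3 did not. The 16 had means from 10.12 to 14.73, and the 3 others, Vha16-2, Vha16-3 and Vha100-3, had means of 2.06, 2.03 and 2.19. The median of all probe sets under the filter was 2.15, so these 3 lay at the level of probe sets without a measured signal. Of all probe sets, 41.2% reached the filter. No member lay near the threshold: the lowest single value among the 16 was 9.81 and the highest among the 3 was 2.22. Probe sets differ in how well they bind, so these levels show which genes gave a signal and not which of 2 genes is the more abundant.

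In the V1 sector, subunits B (Vha55), C (Vha44), E (Vha26), G (Vha13) and H (VhaSFD) are encoded by 1 gene each on this array, and all 5 were measured. Vha55, which forms the nucleotide-binding head together with subunit A, had a mean of 13.92. Vha44, whose yeast counterpart takes part in the reversible joining of V1 to V0, had a mean of 13.90, and Vha26, a peripheral stalk subunit, 14.73. Vha13, the other peripheral stalk subunit, was at 13.52, and VhaSFD, a regulatory subunit, at 13.78. Subunit A, the catalytic subunit, gave a signal from 2 of its 3 genes, Vha68-1 at 10.12 and Vha68-2 at 14.36, while Vha68-3 (CG5075) was at 2.26. Subunit D, part of the central stalk, gave a signal from 1 of 3 genes. That gene was Vha36-1 (Vha36 in the deposited table) at 12.14, while Vha36-2 (CG13167) was at 1.96 and Vha36-3 (CG8310) at 2.03. Subunit F, also of the central stalk, gave a signal from Vha14-1 (Vha14 in the table) at 13.17 and none from Vha14-2 (CG1076) at 2.05.

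In the V0 sector, 7 of 18 genes had a signal. Subunit a, which forms the half-channels for protons and sets in which membrane the pump sits, has 5 fly genes. Vha100-1 was at 12.40 and Vha100-2 at 13.22, while Vha100-3 was at 2.19, Vha100-4 (CG7678) at 2.36 and Vha100-5 (CG12602) at 2.11. Vha100-1 is known best from neurons, where it acts at synapses. Of the neuron markers, nSyb, Syt1 and brp were under the filter in DL1 cells, with control means of 1.77, 2.40 and 2.25, and elav was over it, at 8.78. The proton-binding ring subunit c gave a signal from 1 of 5 genes, Vha16-1 (Vha16 in the table), at 14.40, and a second probe set of the gene read 13.46. Its paralogs Vha16-4 (CG9013) and Vha16-5 (CG6737) were at 2.18 and 2.35, beside Vha16-2 and Vha16-3 already given. The ring subunit c″ was represented by VhaPPA1-1 at 14.68 and not by VhaPPA1-2 (CG7026) at 2.26. Subunit d, which joins the ring to the central stalk, was represented by VhaAC39-1 (VhaAC39 in the table) at 13.49 and not by VhaAC39-2 (CG4624) at 2.20. The small membrane subunit e gave a signal from VhaM9.7-b (VhaM9.7-2 in the table) at 14.63 and VhaM9.7-c (VhaM9.7-1 in the table) at 10.38, but not from VhaM9.7-a (CG1268) at 2.19 or VhaM9.7-d (CG14909) at 2.09.

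**Figure D1:**
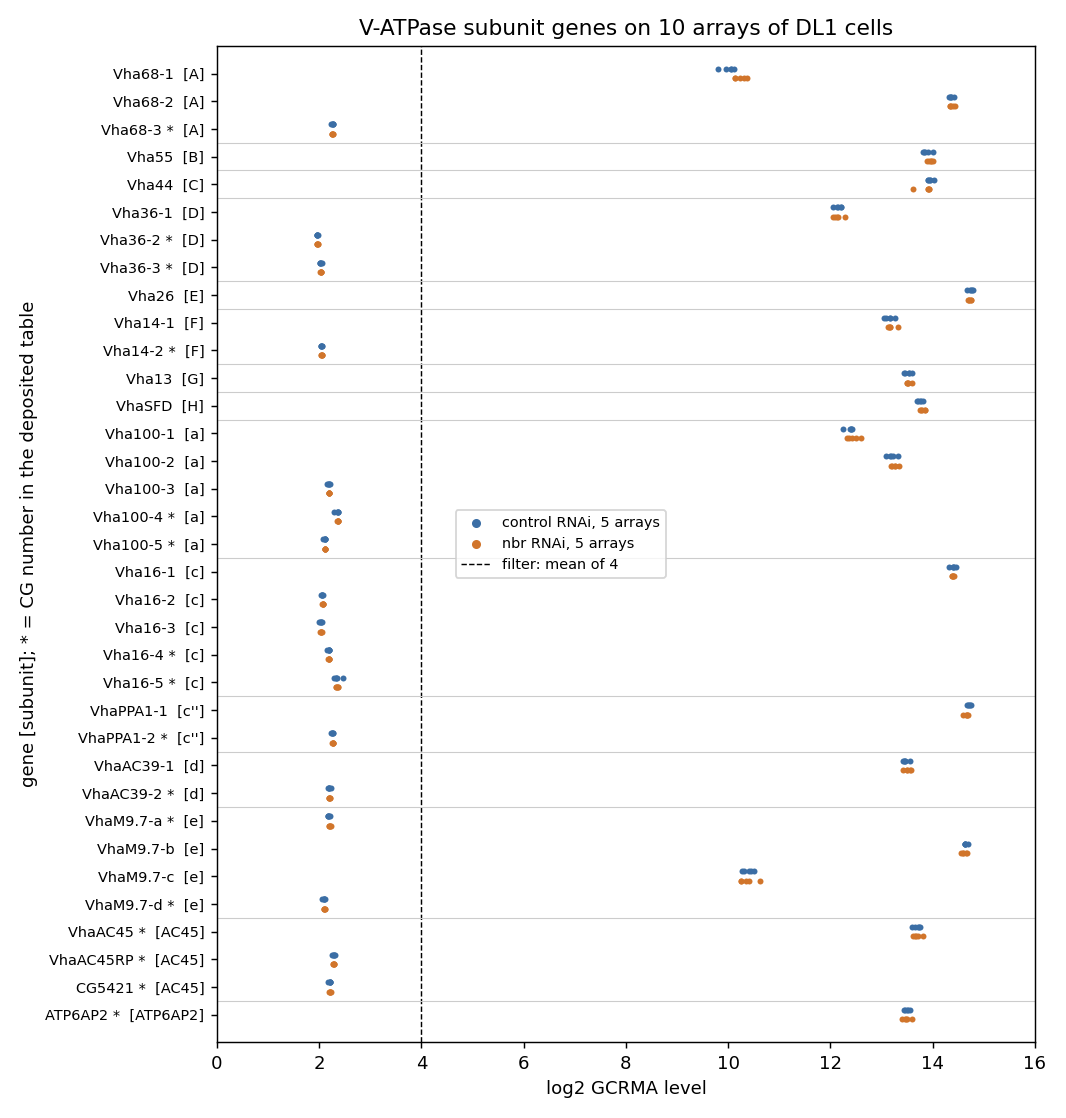
Log2 GCRMA level (x axis) of each of 35 V-ATPase genes (y axis, subunit in brackets, a star for genes with a CG number in the deposited table) on 5 control RNAi arrays (blue) and 5 nbr RNAi arrays (orange), with the filter at 4 dashed. The 18 genes with a signal read 9.81 or more on every array, and the other 17 read 2.47 or less.

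Over the 13 subunits of V1 and V0, 10 were represented by 1 gene with a signal and 3, subunits A, a and e, by 2. The 8 subunits with several genes left 15 gene copies under the filter, with no array of either group above 2.47. Some of these copies without a signal lie beside a gene with a signal. In the RefSeq annotation of Release 6 plus ISO1 MT, which served for names and gene order only, no protein-coding gene starts between Vha68-2 and Vha68-3 or between Vha100-2 and Vha100-4, and 1 starts between VhaPPA1-1 and VhaPPA1-2. Vha68-1 also belongs to the first of these clusters, with 1 protein-coding gene between it and Vha68-3. Vha16-2 and Vha16-3 are neighbours of each other and neither had a signal. A probe set that fails to bind its target also reads near 2, and this was not tested for the copies under the filter. A probe set that binds a paralog's transcript can also read high, and this was not tested for the genes over it.

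The accessory proteins were measured too. VhaAC45 (CG8029), an assembly and sorting factor of V0, had a mean of 13.69, and ATP6AP2 (CG8444, with the synonym VhaM8.9), the fly prorenin receptor homologue, 13.49. The related genes VhaAC45RP (CG31030) and CG5421 (with the synonym VhaAC45-2) were at 2.28 and 2.20. All 5 testis markers, both Malpighian tubule markers, all 5 muscle markers and all 4 fat body markers examined were under the filter. Of 13 plasmatocyte (fly macrophage) markers, 10 were over it, while Sr-CI, Col4a1 and vkg were not. In control RNAi the 10 ran from Pxn at 5.52 to He at 14.38, with NimC1 at 7.04, Hml at 7.28 and crq at 13.30.

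The knockdown was present on every nbr RNAi array: nbr read 11.16 to 11.48 in control RNAi and 7.56 to 8.84 in nbr RNAi, 8.92-fold lower (limma, Benjamini-Hochberg adjusted p = 1.46e-04). Pairwise correlations between arrays, across the 7729 probe sets tested, ran from 0.977 to 0.998.

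No V-ATPase gene passed the test between nbr RNAi and control RNAi. Of the 16 members tested, 0 reached an adjusted p under 0.05 in limma, against 2 of 7729 probe sets (0.0259%). At an unadjusted p under 0.05 there was 1 member, Vha68-1, where 5.87% of all probe sets reached that value. VhaPPA1-1, at 0.176 there in limma, had an unadjusted p of 0.0344 with no filter and 0.0424 without moderation. Its Benjamini-Hochberg adjusted p was 0.829 and 0.817, and 4.40% and 6.04% of all probe sets were under an unadjusted 0.05 in those settings. The groups did not overlap for 1 member, again Vha68-1, against 0.97% of all probe sets. The mean was higher in nbr RNAi for 9 of the 16 and lower for 7. Their median log2 fold change was 0.010, beside 0.0056 for the 7729 probe sets. The log2 fold changes ran from -0.092 for Vha44 to 0.24 for Vha68-1. The 95% interval of all 16 lay within a 1.5-fold change either way, where 92.9% of all probe sets did, and that of 15 within a 1.25-fold change, where 74.6% did. Among the 2432 probe sets with a mean of at least 12, the interval of 94.3% lay within a 1.25-fold change. That level was reached by 14 of the 16 members, and the intervals of all 14 lay within a 1.25-fold change. The exception among the 16 was Vha68-1, with a mean of 10.12 and an upper bound of 0.39.

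**Figure D2:**
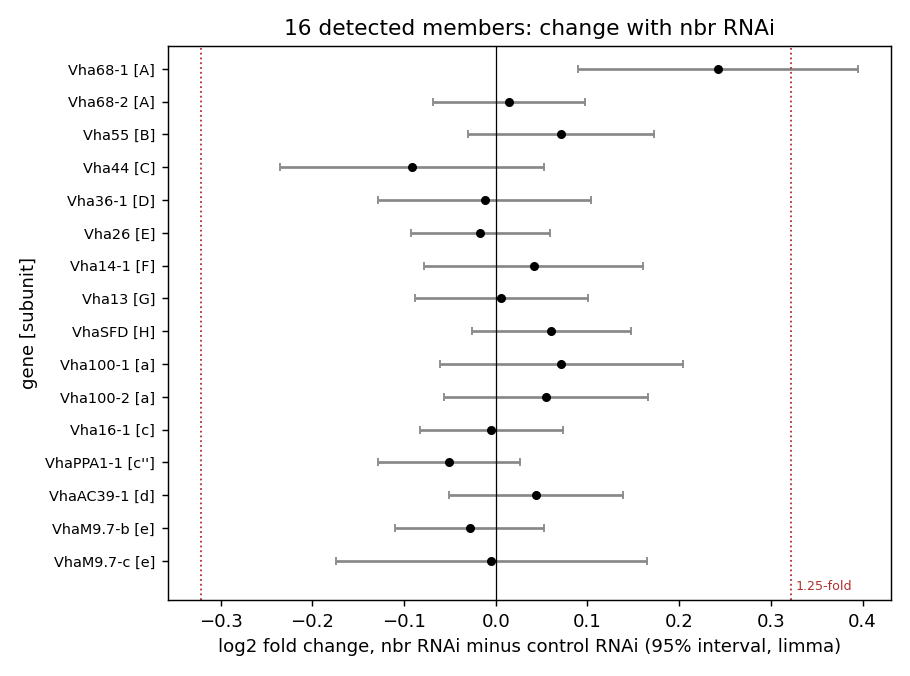
Log2 fold change of nbr RNAi minus control RNAi (x axis; points, with bars for limma's 95% interval) for the 16 members with a signal (y axis, subunit in brackets); dotted lines mark a 1.25-fold change. The interval of Vha68-1, 0.090 to 0.39, does not include 0, and the other 15 do.

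Vha68-1, one of the genes of the catalytic A subunit (FlyBase FBgn0020368), read 10.05, 10.06, 9.96, 9.81 and 10.10 on control RNAi arrays 1 to 5. On nbr RNAi arrays 1 to 5 it read 10.14, 10.24, 10.13, 10.37 and 10.32. All 5 nbr RNAi arrays lay above all 5 control arrays, and the closest values, 10.10 on control array 5 and 10.13 on nbr RNAi array 3, differed by less than the standard deviation of either group. The control mean was 9.996 ± 0.12 (SD, n = 5) and the nbr RNAi mean 10.24 ± 0.10 (SD, n = 5). This 1.18-fold difference, a log2 fold change of 0.24 (standard error 0.069, interval 0.090 to 0.39), missed the threshold in limma with a Benjamini-Hochberg adjusted p of 0.849. The lowest control value, on array 4, bears on its size: without that array the log2 fold change was 0.20.

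Vha68-2 (FBgn0020367), the other A subunit gene with a signal, read 14.32, 14.41, 14.36, 14.36 and 14.33 in control RNAi. In nbr RNAi it read 14.33, 14.40, 14.34, 14.44 and 14.35. These groups overlapped almost completely, and the log2 fold change was 0.014 with an interval of -0.068 to 0.097. The fold changes of the pair were set against each other through the difference of Vha68-1 and Vha68-2 on each array, a comparison added after the values were seen and made for all 3 subunits with 2 measured genes. The log2 fold change of Vha68-1 exceeded that of Vha68-2 by 0.23 with a standard error of 0.066 (2-sided exact permutation p = 0.00794, 0.0238 after Benjamini-Hochberg adjustment over the 3 pairs). The differences did not overlap between the groups, which fixes this p at the smallest that 5 arrays against 5 allow. Since the separation of the Vha68-1 values was already known, it is no independent evidence. Leaving out each array in turn gave differences of 0.18 to 0.26. Whether the probes of either gene also bind the other's transcript was not tested, for this pair or for those of subunits a and e.

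The same comparison for subunit a gave a difference of 0.016 with a standard error of 0.080 between Vha100-1 and Vha100-2 (exact permutation p = 0.881). For subunit e it gave 0.024 with a standard error of 0.067 between VhaM9.7-c and VhaM9.7-b (exact permutation p = 0.730). For these 2 pairs no difference in response was detectable with 5 arrays a group.

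**Figure D3:**
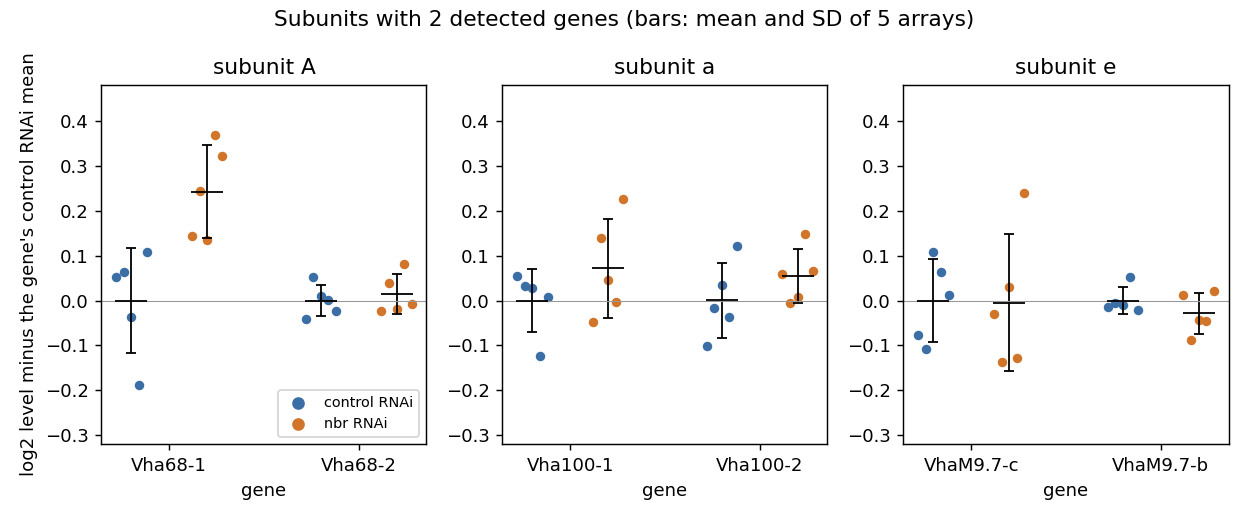
Log2 level minus the gene's control RNAi mean (y axis) for the 3 pairs of genes of 1 subunit that both had a signal (x axis, panels for subunits A, a and e), with control RNAi arrays in blue, nbr RNAi arrays in orange, and bars for the mean and SD of 5 arrays. The nbr RNAi values of Vha68-1 lie above its control values, and the groups overlap for the other 5 genes.

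Vha55, the B subunit gene (FBgn0005671), read 13.83, 13.90, 13.85, 13.82 and 14.00 in control RNAi. In nbr RNAi it read 13.92, 14.01, 13.97, 13.97 and 13.88. The groups overlapped through control array 5, the second highest of the 10, and nbr RNAi array 5, the lowest of its group. Its log2 fold change was 0.071 with an interval of -0.030 to 0.17 (limma, Benjamini-Hochberg adjusted p = 0.876). Without control array 5 the change was 0.10, with an unadjusted p of 0.0385 in limma and an adjusted p of 0.526, so that 2 of 16 members were under an unadjusted 0.05 in that fit. The share of all probe sets under that value rose too, from 5.87% with all arrays to 9.08% without that one.

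VhaSFD, the H subunit gene (FBgn0027779), read 13.72, 13.76, 13.76, 13.69 and 13.81 in control RNAi. In nbr RNAi it read 13.76, 13.78, 13.86, 13.79 and 13.86, with control arrays 3 and 5 inside that range. The log2 fold change was 0.061 with an interval of -0.026 to 0.15 (limma, Benjamini-Hochberg adjusted p = 0.876). Among the remaining V1 genes the C subunit gene Vha44 (FBgn0020611) had the lowest log2 fold change, and it rested on 1 array. Vha44 read 13.91, 13.94, 13.94, 14.03 and 13.91 in control RNAi. On nbr RNAi arrays 1 to 4 it read 13.92, 13.90, 13.93 and 13.92, within or close to the control values, and on nbr RNAi array 5 it read 13.61. The log2 fold change was -0.092 with all arrays and -0.031 without nbr RNAi array 5. Vha36-1, Vha26, Vha14-1 and Vha13 were at -0.012, -0.017, 0.041 and 0.0060, each with a standard error between 0.034 and 0.054. The value of Vha14-1 fell to 0.0060 without nbr RNAi array 5 and to 0.018 without control array 1, and rose to 0.068 without control array 4.

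In V0, VhaPPA1-1, the c″ subunit gene (FBgn0028662), read 14.72, 14.69, 14.75, 14.72 and 14.66 in control RNAi. In nbr RNAi it read 14.67, 14.66, 14.60, 14.69 and 14.67, and the groups overlapped. The log2 fold change was -0.051 with an interval of -0.13 to 0.027 (limma, Benjamini-Hochberg adjusted p = 0.876). Vha16-1, the gene of the c subunit (FBgn0004145), read 14.40, 14.40, 14.46, 14.41 and 14.33 in control RNAi. In nbr RNAi it read 14.41, 14.38, 14.38, 14.39 and 14.40, a narrower range inside that of the controls. Its log2 fold change was -0.0050 with an interval of -0.083 to 0.073, and its second probe set was at -0.028 with an interval of -0.15 to 0.097.

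Both a subunit genes with a signal had small positive differences. Vha100-1 (FBgn0028671) read 12.42, 12.40, 12.40, 12.25 and 12.38 in control RNAi and 12.32, 12.51, 12.41, 12.36 and 12.59 in nbr RNAi. Its log2 fold change was 0.071 with an interval of -0.061 to 0.20. Leaving out nbr RNAi array 5 or control array 4 brought it to 0.033 and 0.041, and leaving out nbr RNAi array 1 to 0.10. Vha100-2 (FBgn0028670) read 13.09, 13.18, 13.23, 13.16 and 13.32 in control RNAi and 13.25, 13.19, 13.20, 13.34 and 13.26 in nbr RNAi. Its log2 fold change was 0.055 with an interval of -0.056 to 0.17. Leaving out control array 1 or nbr RNAi array 4 brought it to 0.030 and 0.032, and leaving out control array 5 to 0.085. For both genes the groups overlapped and the differences were smaller than the standard deviation of at least 1 group. VhaAC39-1, VhaM9.7-b and VhaM9.7-c were at 0.044, -0.028 and -0.0049. The accessory genes VhaAC45 and ATP6AP2 were at 0.0046 and -0.010, with limma Benjamini-Hochberg adjusted p of 0.992 and 0.987. The V1 members had a median log2 fold change of 0.014 over 9 genes and the V0 members -0.0049 over 7.

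The 17 genes under the filter were not tested, and their group means differed by -0.0024 to 0.019 on the log2 scale. At that level a difference between arrays gives no limit on a change of the transcript. None of them gave a signal on an nbr RNAi array.

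The levels of the pump genes were close between replicates. The standard deviation within groups, pooled over both, had a median of 0.059 over the 16 members, from 0.031 for Vha26 to 0.13 for VhaM9.7-c, and a median of 0.12 over all probe sets tested. Bright probe sets varied less in general: among the 2432 probe sets with a mean of at least 12 the median was 0.077, and among the 14 members at that level 0.055. Signals near the top of the scale, where the highest value on any array was 15.93, can be compressed, and this was not tested.

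Array nbr RNAi 5 carried the widest deviations of the members. There 12 of 16 members lay above the mean of their group. The median deviation over all 16 was 0.051, and that over the 7729 probe sets was 0.053. VhaM9.7-c read 10.63 on it against a mean of 10.32 over the other nbr RNAi arrays, Vha36-1 12.28 against 12.10, and Vha14-1 13.33 against 13.15. Vha44 went the other way, at 13.61 against 13.92. On the other 9 arrays the median deviation of the members was between -0.031 and 0.018.

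**Figure D4:**
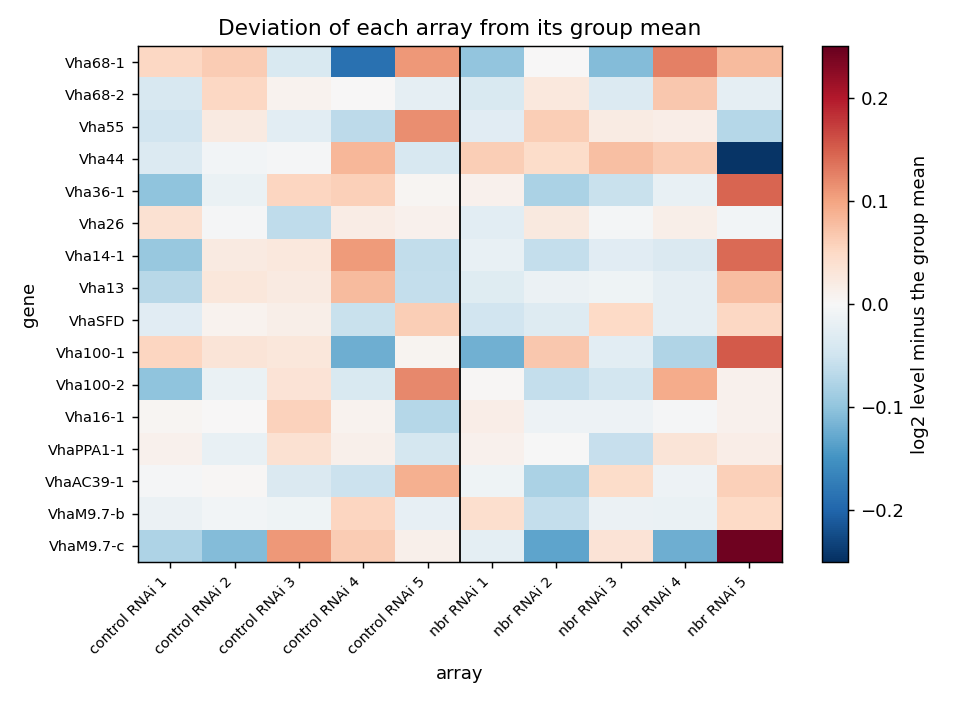
Log2 level of each of the 16 members with a signal (rows) on each array (columns) minus the mean of its own group, red for higher and blue for lower, with a line between control RNAi and nbr RNAi. The darkest cells are Vha44 (-0.24) and VhaM9.7-c (0.24) on nbr RNAi array 5.

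Genes of V-ATPase assembly and of acidified organelles did not pass either. Of the 12 examined, 10 had a signal, 7 of them higher and 3 lower in nbr RNAi, and their median log2 fold change was 0.020. None was called by limma, against the 0.0259% of all probe sets, and 1 had an unadjusted p under 0.05, against 5.87%. That gene, Rbcn-3B, encodes a subunit of the Rabconnectin-3 complex, which promotes V-ATPase assembly. It read 10.99 to 11.13 in control RNAi and 11.10 to 11.27 in nbr RNAi, with a log2 fold change of 0.11 and an interval of 0.011 to 0.21 (limma, Benjamini-Hochberg adjusted p = 0.849). Its groups overlapped, and its partner Rbcn-3A was at -0.00085. Mitf encodes the fly relative of the transcription factor TFEB, which activates V-ATPase genes in flies. Mitf was at -0.12 with an interval of -0.27 to 0.037, and at -0.056 without nbr RNAi array 5. Trpml and Cln3 had no signal.

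Of 20 genes of dsRNA uptake and endocytosis, 19 were matched to a probe set of their own and 17 had a signal. In limma 0 of the 17 were called, against 0.0259% of all probe sets, and 0 had an unadjusted p under 0.05, against 5.87%, while 11 were higher and 6 lower in nbr RNAi with a median log2 fold change of 0.0015. The clathrin adaptor genes AP-2mu and AP-1-2beta had the smallest p values, at 0.14 (interval -0.0024 to 0.27) and 0.083 (interval -0.028 to 0.19), with limma Benjamini-Hochberg adjusted p of 0.854 and 0.866. AP-2mu read 11.87 to 12.02 in control RNAi and 12.02 to 12.31 in nbr RNAi, and its log2 fold change was 0.079 without nbr RNAi array 5. That of AP-1-2beta was 0.051 without the same array and 0.022 with array weights. The scavenger receptor gene eater read 11.72 to 12.04 in control RNAi and 10.54 to 12.13 in nbr RNAi. Its log2 fold change was -0.15 with a wide interval of -0.76 to 0.46 (limma, Benjamini-Hochberg adjusted p = 0.960). Sr-CI, a scavenger receptor gene also tied to dsRNA uptake in other fly cells, had a control mean of 2.39. Clathrin heavy chain (Chc) had a log2 fold change of 0.0057, Rab5 of early endosomes 0.010 and Rab7 of late endosomes 0.053.

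The authors' deposited table of the same comparison gives a q-value of 17.9% for Vha68-1, at 1.18-fold, and 19.5% for VhaSFD, at 1.04-fold. For the other 14 members with a signal the q-values of the authors' deposited table are from 36.6% to 38.5%. Its unadjusted p for VhaPPA1-1 is 0.0425, at -1.04-fold, where limma gave 0.176, and 0.0424 without moderation.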

How the data were processed

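Per the labels' protocols, TRIzol-extracted total RNA was turned into cDNA, amplified (Ovation Pico WTA) and biotin-labelled. The deposited values are log2 levels per probe set, made by the authors with GCRMA and Partek, per the submitters' processing notes, which give no versions. The deposited statistics table adds the authors' signed fold change, p-value and q-value in percent, per the file headers, which write tmr for nbr. Its array columns and those of the value table were identical in 189520 of 189520 cells.

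Symbols were updated by transcript accession through the RefSeq table of Release 6 plus ISO1 MT, which matched all 19 members and the 16 other subunit genes. No coordinates are printed, since the sources used here do not give the build of the array annotation. Of 18952 probe sets, 183 controls were left out and 7729 with a mean of at least 4 were tested with limma 3.58.1 in R 4.3.3 (lmFit, eBayes, nbr RNAi minus control RNAi, 2-sided, Benjamini-Hochberg over all 7729, called under 0.05), after a test on simulated data. Exact permutation tests used scipy 1.17.1. The members, lists and naming rule were chosen with earlier results of these data known. The rule names every member, with array values for subunits A, B, a and c, the 4 smallest p and groups that do not overlap; Vha44 was added after its values were seen, as were the other array values given in the closing section. Depth is not defined for arrays, and their number limits the precision.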

Additional observations from a re-analysis of the deposited data

Results flagged for a closer look

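In all, 6 values lay apart from the other 4 arrays of their group, by Dixon's ratio at the 95% level (0.71 for 5 samples). They came from 42 groups examined, those of the 16 members with a signal, nbr, AP-2mu, AP-1-2beta, Rbcn-3B and Mitf, and chance alone gives about 1 in 20. Of these, 4 were on nbr RNAi array 5, which departed most from its group over all probe sets too, with a median size of deviation of 0.15 against 0.042 to 0.076 on the other arrays. On it Vha44 read 13.61 where the nearest array of the group read 13.90, Vha14-1 read 13.33 where the nearest read 13.17, Vha13 read 13.60 where the nearest read 13.51, and AP-2mu read 12.31 where the nearest read 12.04. The other 2 were on control array 4, where Vha100-1 read 12.25 and the nearest control 12.38, and VhaM9.7-b read 14.70 and the nearest control 14.64. The part of either array in these values was not tested further.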

How the results depend on the processing

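No V-ATPase member was called in limma with no filter or one at 6, after quantile normalization or median centring, with array weights, in a trended robust fit, without moderation, at a threshold of 0.1, with the second probe set of Vha16-1, or with any array left out, and 0 were called with the 16 CG-numbered genes added (chosen after seeing the data). The number with a signal, 16, held for means of at least 3 or 6, for each array singly and for control arrays alone, and was 18 with those genes. With the replicate number as a block the median log2 fold change was 0.010 and 0 members were called (1 of 7729 probe sets, against 2 without the block). Deviations of same-numbered arrays from their group means had correlations, across probe sets, from -0.47 to 0.18. The labels give no scan date or slide, and these correlations cannot settle whether same-numbered arrays were handled together. The sample descriptions carry serial numbers that run through all control RNAi arrays and then all nbr RNAi arrays. Their meaning is not given, and an effect of that order cannot be told apart from that of the RNAi. The adjusted p of Vha68-1 ran from 0.350 (array weights) to 1.00, and its log2 fold change from 0.17 to 0.27. With 1 array left out at a time, the median over the members ran from -0.00091 to 0.020, and with array weights it was -0.0037. Leaving out 1 array moved the log2 fold change by over 1.5 times for 12 of the 16 members, all but Vha55, Vha68-1, VhaPPA1-1 and VhaSFD. Signs turned only for members near 0. With array weights Vha68-2 was at -0.0063 and Vha13 at -0.012, and with median centring Vha13 was at -0.00010. Leaving out arrays gave -0.0025 to 0.028 for Vha68-2, -0.048 to 0.0081 for Vha36-1, -0.013 to 0.026 for Vha13, -0.023 to 0.0094 for Vha16-1 and -0.066 to 0.028 for VhaM9.7-c. The difference between paralogs ran from -0.019 to 0.058 for subunit a and from -0.025 to 0.054 for subunit e. With array weights Vha100-1 was at 0.0067 and Vha44 at -0.030. The cause of these shifts was not tested. Levels near background limit what can be said of 17 genes.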
